A study of Homo sapiens with 2 samples.

Results

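The enzymes described here are encoded by 10 genes, chosen by symbol: the peroxiredoxins PRDX1 to PRDX6, the superoxide dismutases SOD1 and SOD2, catalase (CAT) and glutathione peroxidase 4 (GPX4). All 10 were found in the deposited table of 10987 genes, each on 1 identifier. RNA sequencing was available for 2 libraries labelled as THP1, 1 from cells given bort for 24 h and 1 from untreated cells. The identity of the line is in doubt, because the marker genes given below go against that label. THP1 is a human monocytic leukaemia line established in culture, and bort (bortezomib) blocks the proteasome, which breaks down proteins tagged with ubiquitin. The concentration of bort and the number of cultures behind each library are not given in the labels. The untreated cells are not described as having received the solvent of the drug.

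Cells make superoxide and hydrogen peroxide during respiration, protein folding and lipid oxidation. Superoxide dismutases turn superoxide into hydrogen peroxide, and peroxiredoxins, catalase and glutathione peroxidases then reduce the peroxide. The peroxiredoxins use a reactive cysteine that thioredoxin restores, catalase needs no outside reductant, and glutathione peroxidases draw on glutathione. PRDX2 and CAT are known as abundant proteins of red blood cells. Several genes of this system are known targets of NRF2, a transcription factor that is itself degraded by the proteasome through its partner KEAP1.

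The values are FPKM, in which fragment numbers are divided by transcript length and by the mapped fragments of the library, so levels of different genes can be compared within a library. They summed to 210026 in the untreated library and 221529 in the bort-treated library, with medians of 5.85 and 6.02 FPKM. Without the read depth a counting error cannot be attached to any value, and with 1 library per condition no difference could be set against a spread between cultures. Differences are given as log2 fold changes, bort-treated minus untreated, of FPKM + 1. In bulk RNA, fewer cells of one kind and less RNA per cell cannot be told apart. The label of a monocytic line was checked against marker genes. Of 20 monocytic and myeloid markers 7 were listed, with CD14, CSF1R and MPO not among them and a highest untreated level of 7.61 FPKM, for LYZ. Of 20 erythroid markers 19 were listed, up to 1487 FPKM for HBG1, a fetal globin gene. GATA1 and KLF1, transcription factors of red cell formation, were at 161 and 147 FPKM in untreated cells. These levels do not match a monocytic line, and the libraries are therefore named by their treatment labels. The erythroid list had a median log2 fold change of -0.85, or -0.15 with the GC trend described below removed. By 1.5-fold or more 10 of its 19 listed genes were lower and 3 higher, against 21.6% and 20.8% of all genes. With bort GATA1 was at 48.7 FPKM and KLF1 at 17.4 FPKM, whereas HBE1, an embryonic globin gene, went from 425 to 710.3 FPKM and RHAG, a red cell membrane protein, from 222 to 363 FPKM. The summed level of the list, in which HBG1 and HBG2 weigh most, was 5195 FPKM without and 4553 FPKM with bort, and that of the myeloid list was 25.8 and 64.6 FPKM. The part of these differences in the values below was not tested. Of 31 proteasome subunit genes, which are known to be induced when the proteasome is blocked, 29 were higher by any amount in the bort-treated library. Their median log2 fold change was 0.52. Over all 10987 genes 5526 were higher by any amount. Of the 31, 13 were higher by 1.5-fold or more and 3 by 2-fold or more, against 20.8% and 8.08% of all genes.

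The 10 genes went both ways. PRDX1 and SOD1, the most abundant members in the bort-treated library, were higher there by 1.5-fold or more, whereas PRDX4 and CAT were lower by at least that much. In the untreated library PRDX6 lay just above SOD1, at 238 and 237 FPKM. The other 6, PRDX2, PRDX3, PRDX5, PRDX6, SOD2 and GPX4, stayed within 1.5-fold. No member was higher by 2-fold or more, against a background of 8.08% of all 10987 genes, and 1 of the 10, PRDX4, was lower by 2-fold or more, against 10.2%. At 1.5-fold, 2 of 10 were higher and 2 of 10 lower, against 20.8% and 21.6%. These shares lie near the background. With the trend with GC content removed, as described below, 0 were higher and 1 was lower by 2-fold, against 7.12% and 6.06%. The median log2 fold change of the 10 was -0.11, against 0.0049 over all genes. Of the members, 9 reached 20 FPKM in at least 1 library. Among the 2538 genes at that level the median log2 fold change was -0.27, with 8.43% higher and 20.2% lower by 2-fold or more.

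PRDX1 (ENSG00000117450.13_2, chromosome 1) encodes the main cytosolic and nuclear peroxiredoxin, a typical 2-Cys enzyme that works as a pair of subunits. Its level was 480.3 FPKM without bort and 871 FPKM with it, 1.81-fold higher, with a log2 fold change of 0.86. It was the most abundant of the 10 in both libraries, 37th of all genes without bort and 22nd with it. Of the 10987 genes, 1241 had a larger log2 fold change. PRDX1 held 0.229% of the summed FPKM of the untreated library and 0.393% of that of the bort-treated library. MMACHC lies over PRDX1 on the other strand in GENCODE 29, and the sources used here do not say whether strand was used in the counting.

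PRDX2 (ENSG00000167815.11_3, chromosome 19), the cytosolic peroxiredoxin of red blood cells, was at 101 FPKM without and 98.1 FPKM with bort, a log2 fold change of -0.05. PRDX1 exceeded PRDX2 4.74-fold in the untreated library and 8.88-fold in the bort-treated library. The direction of PRDX2 depended on the scaling. Its log2 fold change was -0.06 with the median of ratios, 0.06 with the upper quartile or the total without the 20 most abundant genes, and 0.30 once the trend with GC content described below was removed. HOOK2 overlaps PRDX2 on its strand in GENCODE 29, so fragments could be assigned to either, and GENCODE 29 names 4 processed pseudogenes of PRDX2. The pseudogenes of PRDX2 were not listed in the table.

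PRDX3 (ENSG00000165672.6_2, chromosome 10) encodes the peroxiredoxin of the mitochondrial matrix. It was at 35.4 FPKM in both libraries, with a log2 fold change of -0.0037, the smallest difference of the 10. The sign of this value is not informative. It became 0.10 with either of the scalings just named and -0.34 with the GC trend removed. On the deposited scale PRDX2 and PRDX3, cytosolic and mitochondrial, kept nearly the same ratio, 2.86 without and 2.77 with bort. With the GC trend removed their log2 fold changes were 0.30 and -0.34, in opposite directions.

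PRDX4 (ENSG00000123131.12_2, chromosome X) encodes the peroxiredoxin of the endoplasmic reticulum, where it removes the peroxide made as disulphide bonds form. Its level was 75.2 FPKM without bort and 36.9 FPKM with it, 2.04-fold lower, with a log2 fold change of -1.01. PRDX4 was the sole member past 2-fold, and 1109 genes lay below it by log2 fold change. It lay just past the threshold. With the upper quartile or the total without the 20 most abundant genes its log2 fold change was -0.90, short of 2-fold. With the GC trend removed it was -1.003. PRDX4 was at 2.12 times the level of PRDX3 without bort and at 1.04 times with it. On the deposited scale PRDX4 and PRDX3 thus came to similar levels, whereas PRDX5, also found in mitochondria, was at 144 FPKM with bort. The PRDX1 to PRDX4 ratio went from 6.38 to 23.6, the widest parting among the pairs compared.

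PRDX5 (ENSG00000126432.13_2, chromosome 11), an atypical 2-Cys enzyme found in mitochondria, peroxisomes and cytosol, was at 194 FPKM without and 144 FPKM with bort. Its log2 fold change was -0.43, and 0.02 with the GC trend removed, so its direction depended on that trend. PRDX6 (ENSG00000117592.8_2, chromosome 1) is the 1-Cys member, which is known to use glutathione and to act on oxidised phospholipids. With 238 FPKM in untreated cells and 251 FPKM after bort, its log2 fold change was 0.08, and -0.06 with the GC trend removed. Summed over the 6 peroxiredoxins, the level was 1125 FPKM without and 1437 FPKM with bort. PRDX1, from 480.3 to 871 FPKM, had the largest difference in FPKM among them, and it exceeded that of the sum. PRDX4 and PRDX5 were lower on the deposited scale, and PRDX2, PRDX3 and PRDX6 differed little.

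SOD1 (ENSG00000142168.14_2, chromosome 21) encodes the copper-zinc superoxide dismutase of the cytosol. From 237 FPKM in untreated cells it went to 377 FPKM after bort, 1.59-fold higher, with a log2 fold change of 0.67. It moved from 102nd to 56th of all genes by level, and 1927 genes had a larger log2 fold change. GENCODE 29 names 3 processed pseudogenes of SOD1, none of them in the table. CCS, the chaperone that hands copper to SOD1, was at 9.30 and 11.2 FPKM, a log2 fold change of 0.24.

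SOD2 (ENSG00000112096.16_3, chromosome 6) encodes the manganese superoxide dismutase of mitochondria and is a known target of NF-kB. It was the least abundant of the 10, at 2.01 FPKM without and 1.68 FPKM with bort, with a log2 fold change of -0.17. SOD1 exceeded SOD2 by 118-fold in the untreated library and by 225-fold in the bort-treated library. GENCODE 29 places another identifier of the same name over SOD2 on its strand, so fragments of this gene could be divided between identifiers and its level is uncertain. At about 2 FPKM the pseudocount matters as well, and the log2 fold change was -0.26 without one.

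CAT (ENSG00000121691.4_2, chromosome 11) encodes catalase, which breaks down hydrogen peroxide in peroxisomes. It went from 48.5 FPKM in untreated cells to 29.8 FPKM after bort, 1.62-fold lower, with a log2 fold change of -0.68. Removing the GC trend gave -0.85, and 2040 genes lay below it on the deposited scale. CAT lay above PRDX3 without bort and below it with bort. SOD1 exceeded CAT 4.89-fold in the untreated library and 12.6-fold in the bort-treated library.

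GPX4 (ENSG00000167468.16_3, chromosome 19) encodes the selenoprotein that reduces lipid peroxides in membranes and thereby protects cells from ferroptosis. It was at 67.7 FPKM without and 59.7 FPKM with bort, with a log2 fold change of -0.18. GPX4 had the highest GC content of the 10 and the largest correction, to 0.40 with the GC trend removed. In the order of levels PRDX1 was first and PRDX5, PRDX2 and SOD2 were 4th, 5th and 10th in both libraries, while the other 6 genes changed places. With a single library each, it cannot be said which neighbours in this order differ beyond the spread between cultures. The 10 genes together held 0.705% of the summed FPKM of the untreated library and 0.860% of that of the bort-treated library. Without PRDX1 and SOD1 the other 8 summed to 763 and 657 FPKM.

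Fold changes in these libraries followed GC content. The Spearman correlation between log2 fold change and the GC content of the transcripts was -0.49 over 10907 genes, which share the same 2 libraries. The 10 genes spanned 41.9% for PRDX3 to 63.4% for GPX4. The GC-rich members were PRDX2 (57.6%), PRDX5 (60.8%) and GPX4, and each was lower on the deposited scale and higher once the trend was removed. The trend at their GC content was -0.35, -0.45 and -0.58 on the log2 scale. PRDX1, SOD1 and PRDX4, with GC contents of 49.8%, 49.9% and 48.9%, sit where the trend is near 0, at -0.05, -0.05 and -0.0038. Their fold changes were accordingly little altered, at 0.91, 0.72 and -1.003 with the trend removed. CAT, at 45.3%, lay where the trend is positive, at 0.17, and was nevertheless lower.

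The 2 members with the largest decreases, PRDX4 and CAT, and the member with the smallest difference, PRDX3, are shown by their promoters so that the letters upstream of each can be compared. The windows run from 250 bases before to 50 bases after the start site, 5′ to 3′ on the strand of the gene, and come from RefSeq on GRCh38.p14 (PRDX4, chrX:23667243-23667542, plus strand; CAT, chr11:34438684-34438983, plus strand; PRDX3, chr10:119178763-119179062, minus strand). Capitals mark matches, on either strand, to the CCAAT box CCAAT, the GC box GGGCGG and the E-box CACGTG.
PRDX4: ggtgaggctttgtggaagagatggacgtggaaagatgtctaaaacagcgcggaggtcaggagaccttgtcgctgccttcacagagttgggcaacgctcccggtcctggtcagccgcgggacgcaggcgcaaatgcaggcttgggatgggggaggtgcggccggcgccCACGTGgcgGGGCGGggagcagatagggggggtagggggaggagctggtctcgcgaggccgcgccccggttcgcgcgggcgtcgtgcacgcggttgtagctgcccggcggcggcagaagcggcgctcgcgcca
CAT: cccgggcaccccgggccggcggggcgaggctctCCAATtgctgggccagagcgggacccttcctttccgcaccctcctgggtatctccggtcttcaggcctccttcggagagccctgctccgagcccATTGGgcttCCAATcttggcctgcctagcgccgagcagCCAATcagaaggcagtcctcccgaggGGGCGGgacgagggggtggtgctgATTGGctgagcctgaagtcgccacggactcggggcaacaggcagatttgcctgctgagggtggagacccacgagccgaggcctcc
PRDX3: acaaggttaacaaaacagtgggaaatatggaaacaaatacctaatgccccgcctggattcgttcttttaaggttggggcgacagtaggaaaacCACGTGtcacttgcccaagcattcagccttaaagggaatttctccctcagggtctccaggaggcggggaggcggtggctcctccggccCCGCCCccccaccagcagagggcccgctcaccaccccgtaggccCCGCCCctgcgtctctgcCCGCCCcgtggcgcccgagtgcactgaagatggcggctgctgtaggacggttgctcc

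CAT held 5 matches to CCAAT and 1 to GGGCGG. PRDX4 and PRDX3 each held 1 E-box CACGTG, with 1 and 3 GC boxes, and neither held CCAAT. Windows were at hand for 7 of the 10 genes, 13 windows in all, several of which overlap; PRDX1, PRDX6 and SOD1 had none. All 13 held GGGCGG, which 45.0% of 35116 windows of the same length hold. CCAAT was in 5 and CACGTG in 2 of the 13, against 34.6% and 7.26% of the 35116. Windows of the same gene are not independent, and these counts were not tested. The core of the antioxidant response element bound by NRF2, TGACNNNGC, is found in 13.3% of all windows, and the amino acid response element bound by ATF4, TGATGNAA, in 3.62%, with no match to either in the 13 windows. These matches describe letters and not binding.

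The thioredoxin system restores the peroxiredoxins. Of its 16 genes, all listed, 2 passed 2-fold upward and 2 downward, against 8.08% and 10.2% of all genes. Their median log2 fold change was -0.02. TXN, the cytosolic thioredoxin that reduces PRDX1 and PRDX2, was at 196 FPKM without and 309 FPKM with bort, a log2 fold change of 0.65 that became 0.13 with the GC trend removed. TXN2, the mitochondrial thioredoxin that serves PRDX3, was at 58.7 and 30.2 FPKM, with a log2 fold change of -0.94, or -0.62 with the trend removed. On the deposited scale TXN was thus higher beside PRDX1, and TXN2 lower beside an unaltered level of PRDX3. The reductase of the cytosolic protein, TXNRD1, was at 27.3 and 22.8 FPKM, a log2 fold change of -0.25. That of the mitochondrial protein, TXNRD2, was at 13.8 and 6.12 FPKM, a log2 fold change of -1.05 that became -0.65 with the GC trend removed. SRXN1, the sulfiredoxin that repairs over-oxidised peroxiredoxins, was at 30.1 and 35.9 FPKM, a log2 fold change of 0.25. TXNDC5, a disulphide isomerase of the endoplasmic reticulum, had the largest increase of this list, from 10.2 to 41.4 FPKM, followed by TXNL1 from 4.12 to 13.4 FPKM, and TXNL4A was lower, at 13.1 and 5.89 FPKM. TXNDC5 was thus higher in the library in which PRDX4, of the same compartment, was lower. TXNDC5, TXNRD1 and SRXN1 each share their strand with another coding gene that overlaps them in GENCODE 29.

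Among 13 listed genes of a list of 20 other peroxidases, partners of the superoxide dismutases, sestrins and methionine sulfoxide reductases, 1 was higher and 1 lower by 2-fold or more, with a median of 0.24. GPX1, the cytosolic glutathione peroxidase, was listed at 0.179 FPKM without and 0.559 FPKM with bort, so that GPX4 was the glutathione peroxidase with the highest FPKM of the table. GPX2, GPX3 and GPX7 were not listed. SESN2, a sestrin, was higher, at 9.02 and 23.7 FPKM, and MSRB1, a selenoprotein that repairs oxidised methionine, was at 16.8 and 29.4 FPKM. PARK7, a redox-sensitive chaperone, was at 128 and 63.9 FPKM, a log2 fold change of -0.996 that lay just short of 2-fold. PRXL2B, listed under its older symbol and similar in sequence to peroxiredoxins, was at 10.6 and 0.480 FPKM, with a log2 fold change of -2.97.

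Of 19 listed genes of 20 for NRF2 and its targets, 8 passed 2-fold upward and 0 downward. The shares of all genes were 8.08% and 10.2%. Their median log2 fold change was 0.25 for this list. NFE2L2, which encodes NRF2, was at 5.48 and 5.83 FPKM, a log2 fold change of 0.08 that was -0.18 with the GC trend removed, and KEAP1 was at 29.7 and 17.5 FPKM. The largest increases were those of OSGIN1, a regulator of growth under oxidative stress, from 3.47 to 27.2 FPKM, and SLC7A11, the cystine carrier, from 0.656 to 7.26 FPKM. On the deposited scale the largest decreases were those of TALDO1, from 158 to 88.7 FPKM, and KEAP1, with log2 fold changes of -0.83 and -0.73. With the GC trend removed these were -0.56 and -0.26. OSGIN1 overlaps another coding gene on its strand. SRXN1 and TXNRD1 are also in the thioredoxin list, and SLC7A11, GCLC and GCLM are also in the glutathione list.

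Glutathione is the reductant of GPX4 and PRDX6. Of 19 listed genes of 20 for its synthesis and use, 3 passed 2-fold upward and 1 downward, against 8.08% and 10.2% of all genes. The median log2 fold change of the list was 0.49. GCLM, the regulatory subunit of the enzyme that starts glutathione synthesis, was at 5.99 FPKM without and 25.3 FPKM with bort. GSR, which regenerates reduced glutathione, was at 44.2 and 86.7 FPKM, a log2 fold change of 0.96. GSTK1, a glutathione transferase of mitochondria and peroxisomes, was lower, at 47.1 and 18.7 FPKM, as was MGST2, at 6.62 and 3.20 FPKM.

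GPX4 needs selenocysteine, and CAT needs import into peroxisomes. All 19 genes for selenoproteins and their synthesis were listed, with a median of -0.15. By 2-fold or more 3 were higher and 1 lower, against 8.08% and 10.2% of all genes. EEFSEC, the elongation factor that delivers selenocysteine, was at 7.33 FPKM without and 1.57 FPKM with bort, a log2 fold change of -1.70, and SEPHS1 was at 19.1 and 10.9 FPKM. SELENOI, an enzyme of phospholipid synthesis, and SELENOK, a protein of the endoplasmic reticulum membrane, had the largest increases, from 1.68 to 11.7 FPKM and from 7.24 to 25.1 FPKM. Of 14 listed genes of 15 for peroxisome biogenesis, 0 passed 2-fold upward and 2 downward, against the same shares of all genes. The median of this list was -0.18. PEX5, the receptor that carries proteins such as catalase into peroxisomes, was at 6.53 and 3.11 FPKM, a log2 fold change of -0.87. PEX14, the docking protein for PEX5, was at 20.9 and 7.44 FPKM, and was short of 2-fold at -0.96 with the GC trend removed. PEX3 and PEX19 had the largest increases of this list, with log2 fold changes of 0.27 and 0.16, and that of PEX3 was -0.27 with the GC trend removed.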

How the data were processed

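RNA sequencing values were analysed for 2 human libraries labelled as THP1, a label that their marker genes go against. According to the methods, the authors aligned the reads, after trimming, with HISAT2 2.0.4 and used StringTie 1.2.3, and the submitters' processing notes name GRCh37. For each gene the authors deposited its FPKM. The labels name a TruSeq kit, the methods a stranded KAPA kit with poly-A selection. The annotation is not given in the sources used here, but 10864 of 10987 identifiers carry a suffix that GENCODE uses for GRCh37. The higher value of each gene was at least 0.501 FPKM, so genes low in both libraries were not analysed here. The step that 1 read adds could not be read from the low values, since 15 single-transcript genes in the untreated and 20 in the bort-treated library lay between 0 and 0.2 FPKM, so depth is unknown.

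Fold changes are differences of log2(FPKM + 1), which understate those of low genes. With 1 library per condition no p-value was computed. The members, the 11 lists, the settings and the promoter motifs were chosen with earlier results of these data known. The text names the 10 members, their direct partners and, per list, up to 2 genes with the largest increase and 2 with the largest decrease among those at 5 FPKM or more in either library, and further genes, among them GSR, HBG1, GATA1 and RHAG, for their role, the last 2 after their values were seen. The values of 2 genes of the lists are not reported here. GC content was pooled over the transcripts of GENCODE 29 (GRCh38), matched by identifier for 99.3% of genes, and its trend was removed by lowess with a span of 0.3. Alternatives were 3 scalings, 3 pseudocounts, other fold thresholds, a filter and the GC correction. The scripts were tested on simulated data. Python 3.11.15, numpy 2.4.6, pandas 2.3.3, statsmodels 0.14.6 and matplotlib 3.10.9 were used.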

Additional observations from a re-analysis of the deposited data

How the results depend on the processing

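PRDX1 and SOD1 were higher, and PRDX4, CAT and SOD2 lower, under all 8 alternatives of scaling, pseudocount, filter and GC content. Their log2 fold changes ran from 0.85 to 0.97, 0.66 to 0.77, -1.03 to -0.90, -0.85 to -0.58 and -0.38 to -0.10. A pseudocount cannot change the sign of a gene, and the filter left these values as they were. Their direction could thus be altered by the scalings and the GC correction alone. The number of members lower by 2-fold was 1, but 0 with the upper quartile or the total without the 20 most abundant genes, 2 at a threshold of 1.5-fold and 0 at 4-fold. The number higher was 0, and 2 at 1.5-fold. The scalings named moved the median of all genes by 0.09. The median of the members stayed below 0, from -0.11 to -0.0054. The median of the thioredoxin list was 0.085 and 0.086 under these scalings, 0.010 with the GC trend removed and 0.16 over genes with at least 1 FPKM in each library. That of the 7 listed myeloid markers was 0.80 on the deposited scale with FPKM + 1. It was 1.49 with a pseudocount of 0.1 FPKM, 1.77 without one, 1.09 with the GC trend removed and 1.21 with the filter. Of these markers S100A9 and ITGAM were at 0.101 and 0.234 FPKM in the untreated library. Over all genes 888 were higher by 2-fold, 1576 if 0.1 FPKM was added and 1675 if nothing was added, and that of genes lower was 1125, against 1736 with none and 661 with the GC trend removed. The cause of these shifts was not tested. No paired analysis was possible because there is a single library on either side, which also means that none could be left out. Depth is unknown, so the counting error of SOD2 near 2 FPKM cannot be stated.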

Other observations

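Enzymes that make superoxide or hydrogen peroxide, the substrates of the 10 genes, were sparsely represented. Of 23 such genes 11 were listed, with a median log2 fold change of -0.17. By 2-fold or more 1 was higher and 1 lower, against 8.08% and 10.2% of all genes. CYBA, a subunit of the NADPH oxidase of phagocytes, was at 57.3 FPKM without and 27.9 FPKM with bort. Its log2 fold change of -1.01 became -0.41 with the GC trend removed. CYBB, its catalytic partner, was at 1.04 and 0.219 FPKM, and NCF1 and NCF4 were not listed. ERO1A and ERO1B, oxidases of the endoplasmic reticulum that make peroxide as they form disulphide bonds, were at 4.97 and 8.04 FPKM and at 1.31 and 7.17 FPKM. QSOX2 was at 15.4 and 11.4 FPKM. Both ERO1 oxidases were thus higher in the library in which PRDX4 was lower, with log2 fold changes of 0.60 for ERO1A and 1.82 for ERO1B. With the GC trend removed these were 0.24 and 1.26.

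Of 15 genes for lipid peroxidation and ferroptosis, the process that GPX4 opposes, 12 were listed, with a median of 0.18. Among them 1 passed 2-fold upward and 2 downward, against 8.08% and 10.2% of all genes. SAT1, which acetylates polyamines, was at 5.74 FPKM without and 90.5 FPKM with bort, and NCOA4, the receptor that takes ferritin to lysosomes, was at 33.7 and 61.1 FPKM. SLC40A1, the iron exporter, was at 5.70 and 1.69 FPKM, and DHODH, an enzyme of pyrimidine synthesis in mitochondria, at 6.00 and 2.04 FPKM. ALOX5, ALOX12 and ALOX15 were not listed.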
